A study of Mus musculus with 12 samples.

Results

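Prss35, Cd24a, Lrrc15, Fndc1 and Perp are 5 genes whose RNA was higher in Ocy454 cells given the FGF receptor inhibitor BGJ398, with or without FGF2, than in vehicle-treated cells, and changed little or less under FGF2 without the inhibitor. They were picked for that pattern from 35214 genes with a summed read estimate, of which 12542 had enough reads to be tested, all 5 among them. The levels in the BGJ398, BGJ398+FGF2, DMSO+FGF2 and DMSO groups therefore chose the genes, and the differences of those groups from DMSO, and of the BGJ398+FGF2 group from the DMSO+FGF2 and BGJ398 groups, are given as a description, with no p-value for these genes. The rule set no numerical threshold. It set no condition on the transcripts of each gene, whose shares were tested.

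Ocy454 is an established mouse cell line used as a model of osteocytes, the cells embedded in bone matrix. RNA with poly(A) tails was sequenced from 12 libraries in 4 groups of 3. All cultures grew to confluence at 33 °C, differentiated for 5 days at 37 °C, were pretreated for 1 h and were lysed 48 h after the treatment medium was added, on day 7. The BGJ398 group received 200 nM BGJ398 without FGF2, the BGJ398+FGF2 group 200 nM BGJ398 with 2 ng/mL FGF2, the DMSO+FGF2 group the vehicle DMSO with 2 ng/mL FGF2, and the DMSO group the vehicle without FGF2. The cultures are of 1 cell line on tissue culture plastic, and no label gives a clone or genotype for it.

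FGF2 is a secreted growth factor that binds FGF receptors, tyrosine kinases at the cell surface, and BGJ398 blocks the kinase activity of these receptors. A main route from the receptors runs through RAS and the kinase ERK, which induces transcription factors of the ETS family, such as Etv4 and Etv5, and inhibitors of its own pathway, such as the Sprouty and Spred proteins and the phosphatase Dusp6. In bone, FGF signaling acts on the proliferation and maturation of osteoblasts and on the formation of osteocytes.

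The 5 genes encode surface or secreted proteins of different families. Prss35 encodes a secreted protein related to trypsin-like serine proteases whose active-site serine is replaced. Cd24a encodes a small, heavily glycosylated protein held at the surface by a GPI anchor, known from developing B cells and many epithelia. Lrrc15 encodes a membrane protein with leucine-rich repeats, known in human fibroblasts as a gene induced by TGF-beta. Fndc1 encodes a protein with fibronectin type III domains. Perp encodes a membrane protein of the PMP22 family that is a transcriptional target of p53 and p63 and a part of desmosomes in stratified epithelia. The genes lie on chromosomes 9 (Prss35), 10 (Cd24a and Perp), 16 (Lrrc15) and 17 (Fndc1).

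The promoters are shown because the 5 genes were all picked for a rise in both BGJ398 groups over DMSO, so that shared short motifs can be looked for. RefSeq promoter sequences of build GRCm38.p6, each 300 bases from 250 bases before the transcription start, were found by symbol for 3 of the 5 genes. They are written 5′ to 3′ on the strand of the gene, with matches to 5 motifs in capitals: the TATA box TATAAA, the AP-1 motif TGANTCA, the RUNX motif TGTGGT, the TEAD motif GGAATG and the GC box GGGCGG, each searched on both strands. The windows are chr9:86743383-86743682 on the plus strand for Prss35, chr16:30283205-30283504 on the minus strand for Lrrc15 and chr17:7827253-7827552 on the minus strand for Fndc1.
Prss35: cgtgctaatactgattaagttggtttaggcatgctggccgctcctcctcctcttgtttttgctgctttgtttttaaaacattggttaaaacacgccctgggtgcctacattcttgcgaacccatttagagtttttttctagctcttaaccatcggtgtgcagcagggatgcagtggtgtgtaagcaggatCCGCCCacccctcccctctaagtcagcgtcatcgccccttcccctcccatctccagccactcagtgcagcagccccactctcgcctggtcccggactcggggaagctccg
Lrrc15: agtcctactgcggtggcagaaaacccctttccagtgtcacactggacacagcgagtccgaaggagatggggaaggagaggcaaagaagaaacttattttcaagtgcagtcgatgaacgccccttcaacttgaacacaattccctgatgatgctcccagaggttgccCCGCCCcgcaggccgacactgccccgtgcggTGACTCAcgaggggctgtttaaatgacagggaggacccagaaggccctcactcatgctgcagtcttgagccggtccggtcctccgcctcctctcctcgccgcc
Fndc1: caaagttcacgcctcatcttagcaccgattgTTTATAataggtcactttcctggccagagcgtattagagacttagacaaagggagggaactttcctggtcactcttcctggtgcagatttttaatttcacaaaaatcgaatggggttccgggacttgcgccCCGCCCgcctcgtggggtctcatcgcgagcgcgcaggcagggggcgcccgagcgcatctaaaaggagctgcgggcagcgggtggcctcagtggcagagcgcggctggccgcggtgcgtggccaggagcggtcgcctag

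All 3 windows hold a GC box, which reads CCGCCC on the strand shown and starts at position -60 from the transcription start in Prss35, -84 in Lrrc15 and -88 in Fndc1. The GC box was found in 35.7% of 32851 mouse promoters of the same length. Lrrc15 holds an AP-1 motif at -53, found in 7.81% of all promoters. Fndc1 holds a TATA box on the opposite strand at -219, found in 13.6%. The RUNX letters (16.8% of promoters) and the TEAD letters (14.7%) are in none of the 3 windows. None of the capital stretches overlap. The GC content is 54.0% in Prss35, 58.7% in Lrrc15 and 59.3% in Fndc1, against a median of 52.7% over all promoters.

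The libraries held 18951710 to 27716975 estimated reads. Between replicates, counts varied 3.26 to 25.5 times as much as Poisson sampling would give, so no 2 libraries were treated as duplicates. BGJ398+FGF2 replicate 2 stood apart from the other 11 libraries on the second principal component of the expression values, and the log2 fold changes of the 5 genes without it are given below. Of 16 osteoblast and osteocyte markers, the collagen Col1a1 averaged 2452 TPM and the matrix protein Sparc 2156 TPM (transcripts per 1000000, a level scaled per length and per library), and the osteoblast transcription factor Runx2 averaged 51.9 TPM. The late osteocyte markers Sost and Mepe had no read in any library, and Dmp1, another osteocyte gene, was between 0 and 0.174 TPM. The labels say that each condition was run in triplicate and do not say how the cultures were separated, so the tests rest on a spread between libraries that could in part be technical.

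The 5 genes spanned a wide range of abundance. Per length, over the 12 libraries, Cd24a averaged 57.4 TPM, above 74.0% of the tested genes, and Fndc1 averaged 32.1 TPM, above 57.3%. Perp averaged 6.99 TPM, above 22.3% of the tested genes, and Prss35 averaged 4.43 TPM, above 17.2%. Lrrc15 was the lowest at 0.792 TPM, above 5.13%. A library held 676 to 1291 estimated reads of Cd24a, 874 to 1911 of Fndc1, 90 to 202 of Perp, 91 to 245 of Prss35 and 33 to 70 of Lrrc15, so that the values of Lrrc15 carry the largest counting error among the 5, between 11.9% and 17.4% of a library's value.

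Prss35 was 1.90-fold higher in BGJ398 than in DMSO and 2.17-fold higher in BGJ398+FGF2 than in DMSO+FGF2. Its level, in CPM (reads scaled for library size and composition to a library of 1000000), was 10.7, 11.7 and 11.2 CPM in the BGJ398 libraries, 11.1, 10.2 and 10.0 CPM in the BGJ398+FGF2 libraries, 5.47, 4.60 and 4.33 CPM in the DMSO+FGF2 libraries and 6.32, 6.39 and 5.04 CPM in the DMSO libraries. The 6 libraries with BGJ398 were all above the 6 without it, and the DMSO+FGF2 and DMSO groups overlapped. Prss35 averaged 11.2 ± 0.499 CPM in BGJ398, 10.4 ± 0.570 CPM in BGJ398+FGF2, 4.80 ± 0.595 CPM in DMSO+FGF2 and 5.92 ± 0.758 CPM in DMSO (SD, n = 3 each). The log2 fold change was 0.92 ± 0.12 (SE) for BGJ398 over DMSO and 0.82 ± 0.12 for BGJ398+FGF2 over DMSO. The value for FGF2 without the inhibitor, DMSO+FGF2 over DMSO, was below 0, at -0.30 ± 0.13, and that of BGJ398+FGF2 over DMSO+FGF2 was 1.12 ± 0.12.

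Cd24a, the gene of the GPI-anchored glycoprotein, was the most abundant of the 5 per length. It was at 50.9, 55.2 and 54.5 CPM in BGJ398 libraries, 58.4, 57.2 and 56.3 CPM in BGJ398+FGF2 libraries, 35.2, 37.8 and 36.9 CPM in DMSO+FGF2 libraries and 34.2, 34.7 and 34.6 CPM in DMSO libraries. The 4 groups did not overlap and their order, high to low, was BGJ398+FGF2, BGJ398, DMSO+FGF2 and DMSO. The means were 53.5 ± 2.34, 57.3 ± 1.05, 36.7 ± 1.31 and 34.5 ± 0.300 CPM (SD, n = 3 each) in BGJ398, BGJ398+FGF2, DMSO+FGF2 and DMSO. Relative to DMSO, the log2 fold change was 0.63 ± 0.06 for BGJ398, 0.73 ± 0.06 for BGJ398+FGF2 and 0.09 ± 0.06 for DMSO+FGF2. Each group's step over the next lower one was small within a pair with the same inhibitor setting and large between the pairs, where BGJ398+FGF2 stood over DMSO+FGF2 by 0.65 ± 0.06.

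Fndc1, the fibronectin type III gene, was read most often of the 5, and its BGJ398+FGF2 libraries differed more than those of its other groups. Its level was 75.2, 76.1 and 74.5 CPM in BGJ398 libraries, 78.7, 65.6 and 90.5 CPM in BGJ398+FGF2 libraries, 46.7, 41.8 and 48.7 CPM in DMSO+FGF2 libraries and 44.2, 50.4 and 50.6 CPM in DMSO libraries. The low BGJ398+FGF2 value is replicate 2, the library that stood apart, and it was still above every library without BGJ398. Fndc1 averaged 75.3 ± 0.804 CPM in BGJ398, 78.3 ± 12.5 CPM in BGJ398+FGF2, 45.7 ± 3.55 CPM in DMSO+FGF2 and 48.4 ± 3.65 CPM in DMSO (SD, n = 3 each). The 2 BGJ398 groups overlapped, as did the 2 DMSO groups. The log2 fold change over DMSO was 0.63 ± 0.10 for BGJ398, 0.69 ± 0.10 for BGJ398+FGF2 and -0.08 ± 0.10 for DMSO+FGF2, and BGJ398+FGF2 stood over DMSO+FGF2 by 0.78 ± 0.10. Without BGJ398+FGF2 replicate 2 that last value was 0.89, and the one for BGJ398+FGF2 over DMSO was 0.80.

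Perp, the desmosome gene, had 8.57, 7.10 and 6.76 CPM in BGJ398 libraries, 9.14, 9.26 and 7.91 CPM in BGJ398+FGF2 libraries, 5.19, 5.88 and 4.57 CPM in DMSO+FGF2 libraries and 4.55, 5.74 and 4.18 CPM in DMSO libraries. The lowest library with BGJ398 was above the highest library without it, by less than 1 CPM. Means were 7.48 ± 0.964 CPM in BGJ398, 8.77 ± 0.746 CPM in BGJ398+FGF2, 5.21 ± 0.657 CPM in DMSO+FGF2 and 4.82 ± 0.812 CPM in DMSO (SD, n = 3 each). The order was BGJ398+FGF2, BGJ398, DMSO+FGF2 and DMSO, with overlap within each pair of groups that had the same inhibitor setting. Over DMSO the log2 fold change was 0.63 ± 0.15 for BGJ398, 0.86 ± 0.15 for BGJ398+FGF2 and 0.11 ± 0.15 for DMSO+FGF2, and that of BGJ398+FGF2 over DMSO+FGF2 was 0.75 ± 0.15.

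Lrrc15, the membrane protein with leucine-rich repeats, had the highest log2 fold change of the 5 under FGF2 in DMSO as well as under BGJ398. It was at 2.99, 3.32 and 2.84 CPM in BGJ398 libraries, 2.13, 2.58 and 3.32 CPM in BGJ398+FGF2 libraries, 2.38, 1.58 and 2.28 CPM in DMSO+FGF2 libraries and 1.67, 1.38 and 1.37 CPM in DMSO libraries. Neighbouring groups overlapped at each step of the order BGJ398, BGJ398+FGF2, DMSO+FGF2 and DMSO, whereas both BGJ398 groups were clear of the DMSO group. The means were 3.05 ± 0.248 CPM in BGJ398, 2.68 ± 0.60 CPM in BGJ398+FGF2, 2.08 ± 0.439 CPM in DMSO+FGF2 and 1.47 ± 0.170 CPM in DMSO (SD, n = 3 each). The log2 fold change over DMSO was 1.06 ± 0.23 for BGJ398 and was 0.87 ± 0.23 for BGJ398+FGF2 and 0.51 ± 0.23 for DMSO+FGF2. With FGF2 in both groups, BGJ398+FGF2 stood over DMSO+FGF2 by 0.36 ± 0.22, a value that became 0.17 without BGJ398+FGF2 replicate 3 and 0.51 without BGJ398+FGF2 replicate 1.

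**Figure D1:**
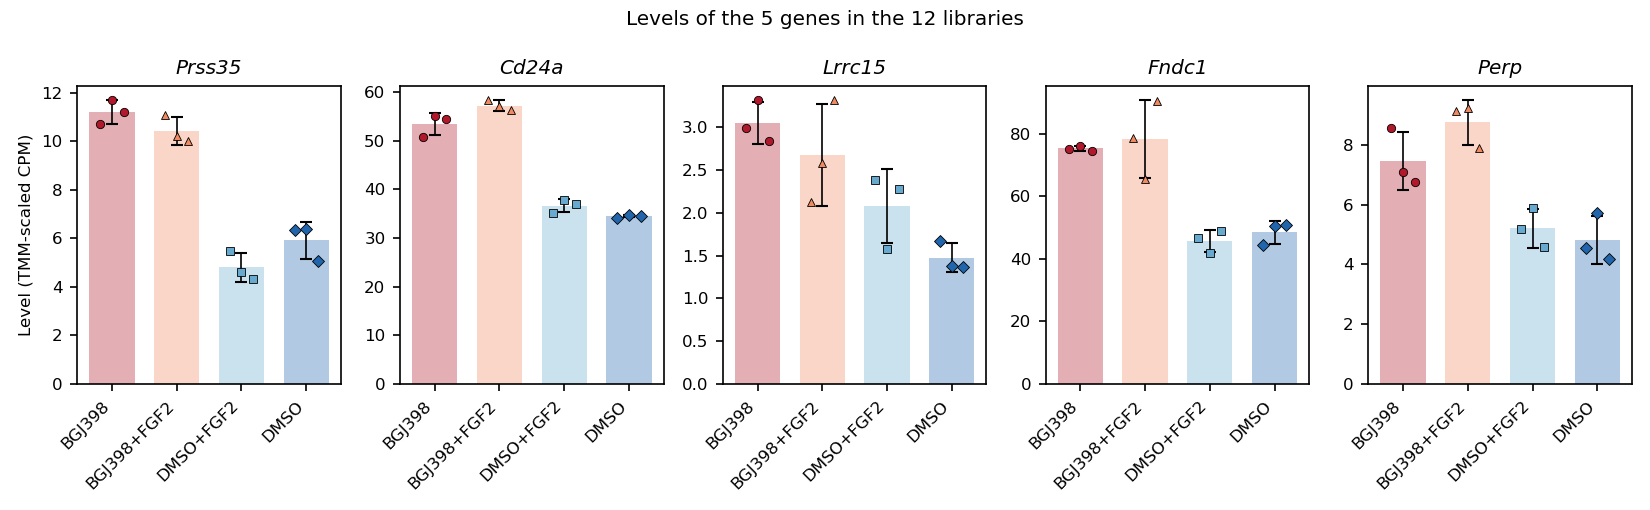
Level of each of the 5 genes in CPM, scaled for library size and composition, in the 3 libraries of each group (points), with the group mean (bar) and SD (error bar); each panel has its own axis from 0. In Prss35, Cd24a, Fndc1 and Perp the 6 libraries with BGJ398 lie above the 6 without it, whereas for Lrrc15 the BGJ398+FGF2 libraries, at 2.13 to 3.32 CPM, overlap the DMSO+FGF2 libraries, at 1.58 to 2.38 CPM.

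Set against all tested genes, the 5 stood near the top of the BGJ398 response. Between 0.502% (Lrrc15) and 1.37% (Perp) of the tested genes had a log2 fold change for BGJ398 over DMSO at or above that of the member. In edgeR's quasi-likelihood test at an adjusted p of 0.05, 3 of the 5, namely Prss35, Cd24a and Fndc1, were among the genes called higher in BGJ398 than in DMSO, a call that 0.151% of all tested genes (19 genes) received. For BGJ398+FGF2 over DMSO the call went to 4 of the 5, all but Lrrc15, and to 0.351% of all tested genes (44 genes). In both contrasts the libraries of all 5 genes did not overlap, which held for 9.11% of all tested genes (BGJ398 over DMSO, higher) and 10.5% (BGJ398+FGF2 over DMSO, higher). Since the genes were picked on these contrasts, the counts describe the choice.

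Some of these calls rested on single libraries or settings. Fndc1 was no longer called in BGJ398 over DMSO when any 1 of the 3 DMSO libraries, or BGJ398 replicate 2 or 3, was left out (log2 fold change 0.58 to 0.67). For BGJ398+FGF2 over DMSO, the call on Perp was lost without DMSO replicate 1 or 3 or BGJ398+FGF2 replicate 1 (0.76 to 0.83), that on Fndc1 without DMSO replicate 1 (0.63) and that on Prss35 without DMSO replicate 3 (0.72). The calls on Cd24a and the direction of all 5 genes in both contrasts held in each of the 12 leave-outs. Without BGJ398+FGF2 replicate 2, the log2 fold change of BGJ398+FGF2 over DMSO was 0.84 for Prss35, 0.73 for Cd24a, 0.82 for Perp and 0.89 for Lrrc15. Over DMSO+FGF2 it was then 1.13, 0.65, 0.71 and 0.38 in the same order of genes. DESeq2 called all 5 genes in both contrasts, where it called 149 and 313 genes in all, against 41 and 92 by edgeR. The genes were picked on these contrasts, so the calls by either tool describe the choice.

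FGF2 without the inhibitor changed many genes, and none of the 5 was called. In DMSO+FGF2 against DMSO, 13.4% of all tested genes (1680 genes) passed the test in either direction. Only Cd24a had its 3 DMSO+FGF2 libraries all above its 3 DMSO libraries, a separation that 19.2% of tested genes showed in that direction. With FGF2 in both media, BGJ398+FGF2 against DMSO+FGF2, 4 of the 5 were called higher, all but Lrrc15, as were 10.8% of all tested genes (1355 genes). The libraries of the same 4 genes did not overlap, which 17.3% of tested genes also showed. The difference between the FGF2 effect under BGJ398 and that in DMSO (the interaction) was 0.19 ± 0.17 for Prss35, 0.01 ± 0.08 for Cd24a, 0.14 ± 0.14 for Fndc1, 0.12 ± 0.21 for Perp and -0.69 ± 0.32 for Lrrc15, and none of the 5 was called where 4.24% of tested genes (532 genes) were. The rule asked for little or weaker change by FGF2, so the values in DMSO+FGF2 against DMSO describe the choice. The other contrasts here are built from the groups the genes were picked on, so their counts describe the choice as well.

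**Figure D2:**
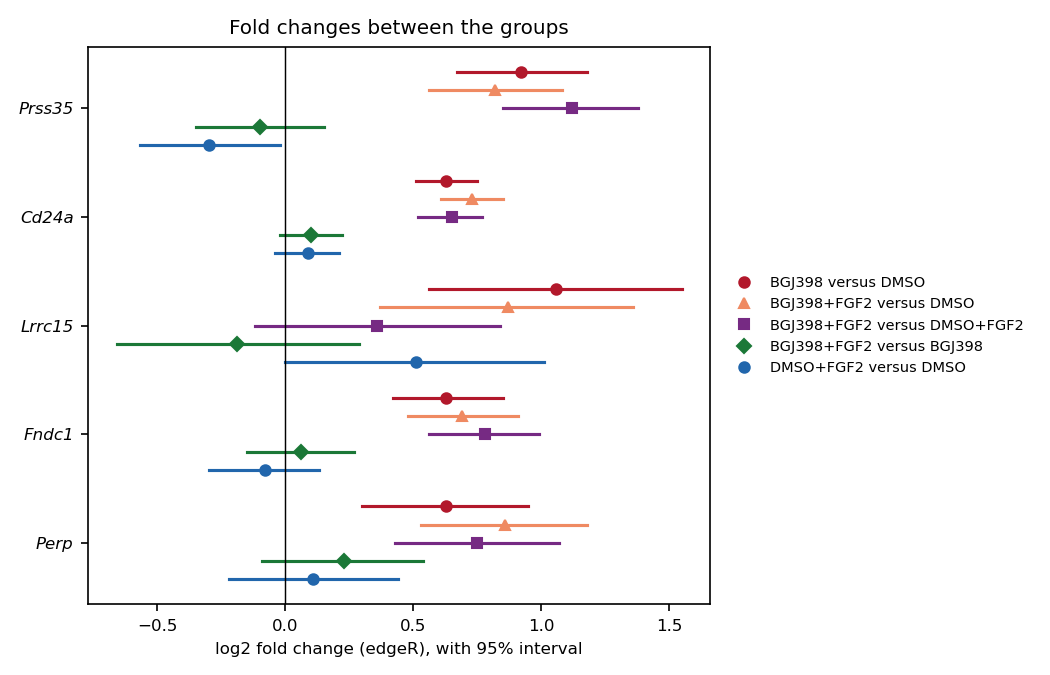
log2 fold change of the 5 genes in 5 contrasts (points) with 95% intervals from the edgeR model (lines). The contrasts of BGJ398 groups over DMSO lie to the right of 0 for each gene, from 0.63 to 1.06, while the intervals for BGJ398+FGF2 over BGJ398 (green) include 0 in each gene.

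The 2 BGJ398 groups differ in FGF2. Since the 5 genes were picked for being high in both, which favours a small difference between them, their values in BGJ398+FGF2 against BGJ398 are a description. No gene passed the edgeR test at an adjusted p of 0.05 among the 12542 tested. At an unadjusted p under 0.05 there were 325 genes (2.59%), limma-voom called 0 and DESeq2 5. The log2 fold change of Prss35 was -0.10, with a 95% interval of -0.35 to 0.15. For Cd24a it was 0.10 (-0.02 to 0.22), and its 3 BGJ398+FGF2 libraries were all above its 3 BGJ398 libraries, which 3.44% of tested genes showed. Fndc1 had 0.06 (-0.15 to 0.27), Perp 0.23 (-0.09 to 0.54) and Lrrc15 -0.19 (-0.66 to 0.29). Without BGJ398+FGF2 replicate 2 the log2 fold changes were -0.09 for Prss35, 0.10 for Cd24a, 0.17 for Fndc1, 0.19 for Perp and -0.17 for Lrrc15. Changes by FGF2 under BGJ398 of up to 0.22 in Cd24a and 0.54 in Perp, and down to -0.66 in Lrrc15, lie within these intervals on the log2 scale. The estimate of Fndc1 turned to -0.06 without BGJ398+FGF2 replicate 3.

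Few other tested genes had the same pattern by the test. Of the 19 genes called higher in BGJ398 than in DMSO, 5 were also called higher in BGJ398+FGF2 than in DMSO and were not called in DMSO+FGF2 against DMSO; all 3 contrasts use the same DMSO libraries. They were Prss35, Cd24a and Fndc1 and, named after their values were seen, Ets2, a transcription factor of the ETS family, and Nrep. The log2 fold changes of Ets2 were 0.28 for BGJ398, 0.28 for BGJ398+FGF2 and 0.16 for DMSO+FGF2, each over DMSO. Those of Nrep were 0.41, 0.41 and -0.08 in the same order. Their means in BGJ398, BGJ398+FGF2, DMSO+FGF2 and DMSO were 200, 200, 185 and 165 CPM for Ets2 and 115, 116, 81.9 and 86.9 CPM for Nrep.

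Genes known as targets or feedback inhibitors of FGF receptor signaling were looked at beside the 5. Of 23 tested FGF receptor and ERK feedback genes, 3 fell in BGJ398 against DMSO, where 0.175% of all tested genes did, none rose and 20 did not pass the test, with a median log2 fold change of -0.20 against 0.00 over all tested genes. Etv5, an ETS factor downstream of ERK, averaged 9.99 CPM in BGJ398 and 16.0 CPM in DMSO (log2 fold change -0.68 ± 0.10, edgeR adjusted p = 0.00951). Its transcripts share 30.3% of their 31-base words with Gm4798, so how reads were split between them is uncertain. Spred2 fell by 0.44 ± 0.08 (edgeR adjusted p = 0.0393) and Spred1 fell by 0.35 ± 0.06 (edgeR adjusted p = 0.0393). With counts scaled from TPM by gene length all 3 calls were lost (adjusted p = 0.0502, 0.155 and 0.0897 for Etv5, Spred2 and Spred1). The Spred1 call was lost in 9 of the 12 leave-outs, with adjusted p up to 0.228, the Spred2 call in 8, up to 0.213, and the Etv5 call without BGJ398 replicate 3, at 0.0693.

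Other readouts of the receptors were lower without passing the test in that contrast. Dusp6, the ERK phosphatase, had -0.44 ± 0.13, Etv4 had -0.73 ± 0.23 and Spry4 had -1.14 ± 0.37 for BGJ398 over DMSO, with edgeR adjusted p of 0.249, 0.312 and 0.345 and mean levels in BGJ398 and DMSO of 14.9 and 20.3 CPM, 2.58 and 4.31 CPM, and 0.424 and 0.942 CPM. FGF2 in DMSO raised 5 of the 23 and lowered 4 (DMSO+FGF2 against DMSO), and 14 did not pass the test. In that contrast 13.4% of all tested genes were called in either direction. Of the genes named, Etv5 had 0.12 ± 0.09, Dusp6 0.25 ± 0.12, Etv4 0.27 ± 0.22 and Spry4 0.42 ± 0.32 in DMSO+FGF2 against DMSO (edgeR adjusted p = 0.465, 0.227, 0.478 and 0.454; Dusp6 0.0451 without DMSO replicate 1). In BGJ398+FGF2 against DMSO+FGF2, 15 of the 23 fell, 5 rose and 3 did not pass the test, with a median of -0.51, where 11.4% of all tested genes fell and 10.8% rose. There Etv5 fell by 0.85 ± 0.10, Dusp6 fell by 0.80 ± 0.13, Etv4 fell by 1.25 ± 0.23 and Spry4 fell by 1.24 ± 0.35 (edgeR adjusted p = 4.23e-05, 0.000739, 0.00193 and 0.0221). The Spry4 call was lost without DMSO+FGF2 replicate 3 or BGJ398+FGF2 replicate 1 or 2.

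**Figure D3:**
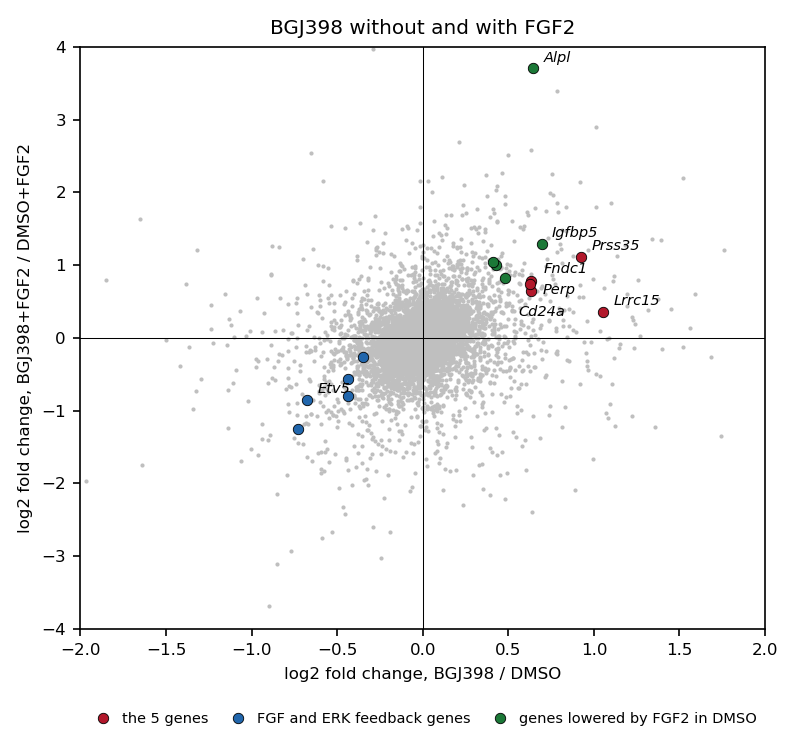
log2 fold change by BGJ398 without FGF2 (BGJ398 over DMSO, horizontal) and with FGF2 (BGJ398+FGF2 over DMSO+FGF2, vertical), 2 contrasts that share no library, for the tested genes (grey; 49 genes lie outside the axes). The 5 genes (red) lie in the upper right, with Lrrc15 at 1.06 and 0.36; Etv5, Etv4, Dusp6, Spred1 and Spred2 (blue) lie in the lower left, and Alpl, Igfbp5, Ehd3, Grb14 and Hes1 (green), which FGF2 lowered in DMSO, lie upper right, with Alpl at 0.65 and 3.71.

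For each of the 5 genes, related genes were looked at in lists by family or pathway. p53 is a known inducer of Perp, and of 27 tested p53 target genes, p53 and its relatives included, none was called in BGJ398 against DMSO, with a median log2 fold change of -0.00. In that contrast 0.327% of all tested genes (41 genes) were called, so that 0 calls in a list of this size, or of the sizes below, is near the background. The cell cycle inhibitor Cdkn1a had 0.10 ± 0.08, Mdm2, the ubiquitin ligase of p53, 0.04 ± 0.06, and Trp53, which encodes p53, 0.03 ± 0.05. Trp63, which encodes p63, averaged 2.92 CPM in BGJ398 and 3.94 CPM in DMSO (log2 fold change -0.43 ± 0.21, edgeR adjusted p = 0.622). In BGJ398+FGF2 against DMSO+FGF2 1 of the 27 rose and 3 fell, where 22.2% of all tested genes were called.

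The genes that share a junction or a family with Perp were next. None of 12 tested desmosome and adherens junction genes was called in BGJ398 against DMSO (median 0.03), while 5 rose and 3 fell in BGJ398+FGF2 against DMSO+FGF2 (22.2% of all tested genes called). None of 4 tested members of the PMP22 family passed in BGJ398 against DMSO either. Emp1 had -0.24 ± 0.05 (edgeR adjusted p = 0.0641) and Pmp22, a myelin protein that gives the family its name, had -0.09 ± 0.06. Emp1 rose under FGF2 in DMSO by 0.51 ± 0.05 and fell by 0.63 ± 0.05 in BGJ398+FGF2 against DMSO+FGF2 (edgeR adjusted p = 1.24e-05 and 1.24e-06), where Pmp22 rose by 0.28 ± 0.06 (0.00328). Without BGJ398+FGF2 replicate 2, Emp1 was also called lower in BGJ398 than in DMSO (0.0202).

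Few relatives of the other 4 genes passed the test in BGJ398 against DMSO. Of 10 tested secreted trypsin-like proteases, 1 fell, Masp1, a protease of the complement system, by 0.33 ± 0.06 (edgeR adjusted p = 0.0308; up to 0.195 in leave-outs, with the call lost in 8 of 12). Prss23, the closest relative of Prss35 in the list, had -0.13 ± 0.06. None of 5 tested genes of the FNDC family passed in any of the contrasts against DMSO or in BGJ398+FGF2 against DMSO+FGF2, among them Fndc3a with -0.04 ± 0.11 and Fndc3b with -0.02 ± 0.10 in BGJ398 over DMSO. None of 16 tested leucine-rich repeat surface proteins was called in BGJ398 against DMSO (median 0.02). Lrrc17 had 0.17 ± 0.11 there. Lrrc32, which holds latent TGF-beta at the cell surface, had 0.03 ± 0.10 for BGJ398 over DMSO but rose by 0.99 ± 0.10 in DMSO+FGF2 against DMSO and fell by 0.98 ± 0.10 in BGJ398+FGF2 against DMSO+FGF2 (edgeR adjusted p = 1.65e-05 and 1.55e-05). Of 8 tested CD24 ligands and Src-family kinases and 23 tested GPI-anchored surface proteins, none was called in BGJ398 against DMSO, with medians of 0.01 and 0.03.

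TGF-beta induces Lrrc15 in human fibroblasts, and a pair of lists bears on that context. The counts called in BGJ398 against DMSO, where 0.327% of all tested genes were, came to 0 of 23 tested activated fibroblast genes, with a median of 0.07, and 0 of 25 tested TGF-beta response genes, with a median of 0.02. Tgfb1, the ligand, averaged 156 CPM in BGJ398 and 156 CPM in DMSO. In BGJ398+FGF2 against DMSO+FGF2 the same lists had 12 genes higher and 3 lower, with a median of 0.45, and 9 higher and 6 lower, with a median of 0.11, where 22.2% of all tested genes were called.

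**Figure D4:**
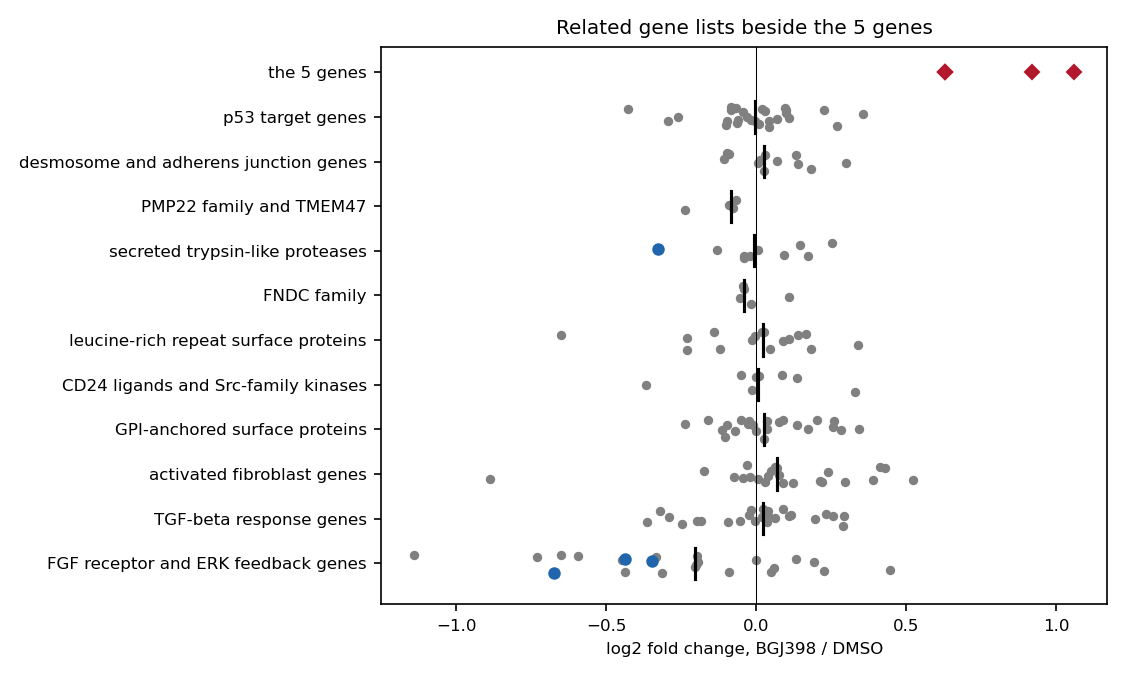
log2 fold change for BGJ398 over DMSO of the 5 genes (red diamonds) and of the tested genes of 11 lists (grey points; blue points passed the edgeR test; black bar, median of the list). The 5 genes lie at 0.63 to 1.06, and the called list genes, 3 of the FGF feedback list and Masp1, lie below 0.

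Markers of other cell types were at low levels, the highest sums being those of the 8 chondrocyte markers and, in DMSO+FGF2, of the 13 blood cell markers. The chondrocyte sum was 10.7 to 13.1 TPM in BGJ398, 10.3 to 13.9 TPM in BGJ398+FGF2, 10.9 to 11.4 TPM in DMSO+FGF2 and 10.0 to 11.7 TPM in DMSO, above the mean levels of Perp, Prss35 and Lrrc15. Most of it was Sox9, a transcription factor of cartilage, at 6.13 TPM, and the matrix protein Matn3, at 3.49 TPM on average, while the cartilage genes Col2a1 and Acan averaged 0.208 and 0.00879 TPM. None of the 4 tested was called in BGJ398 against DMSO. Matn3 was called higher in BGJ398+FGF2 against DMSO (log2 fold change 0.72 ± 0.13, edgeR adjusted p = 0.0328). It had -1.80 ± 0.16 in DMSO+FGF2 against DMSO and 2.51 ± 0.15 in BGJ398+FGF2 against DMSO+FGF2 (edgeR adjusted p = 6.96e-06 and 1.82e-07). Sox9 had 0.84 ± 0.11 and -0.76 ± 0.11 in those last contrasts (0.000261 and 0.000424), and Col2a1 and Comp passed in none of them. Over the 12 libraries the adipocyte markers summed to 0.606 to 2.37 TPM, the muscle markers to 1.77 to 4.40 TPM and the endothelial markers to 0.101 to 1.93 TPM. Since Cd24a and Perp are also epithelial genes, the epithelial list bears on them: its 15 markers summed to 2.68 to 3.76 TPM in BGJ398, 2.93 to 3.63 TPM in BGJ398+FGF2, 1.73 to 2.38 TPM in DMSO+FGF2 and 3.33 to 3.73 TPM in DMSO. Of the 15, Epcam, Krt5, Krt18, Cldn4 and Esrp1 had no read in any library, and most of the sum was Trp63, at 1.72 TPM on average. Krt14 averaged 0.521 TPM, Krt7 0.263 TPM, Cdh1 0.252 TPM and Krt19 0.149 TPM. None of the 3 tested was called in BGJ398 against DMSO. Cdh1, which encodes E-cadherin, fell by 1.34 ± 0.41 in DMSO+FGF2 against DMSO and rose by 1.42 ± 0.42 in BGJ398+FGF2 against DMSO+FGF2 (edgeR adjusted p = 0.0482 and 0.0269), calls that were lost in 10 and in 4 of the 12 leave-outs with adjusted p up to 0.159 and 0.0994. The 13 blood cell markers summed to 4.23 to 7.28 TPM in BGJ398, 4.12 to 6.52 TPM in BGJ398+FGF2, 11.7 to 13.9 TPM in DMSO+FGF2 and 2.49 to 4.88 TPM in DMSO. Most of that was Cd68, at 5.59 TPM on average, and the B cell gene Ms4a1 was at 0. Cd68 had 1.94 ± 0.22 in DMSO+FGF2 against DMSO and -1.30 ± 0.22 in BGJ398+FGF2 against DMSO+FGF2 (edgeR adjusted p = 6.59e-05 and 0.000902). In bulk RNA, more cells of a type and more RNA per cell cannot be told apart. The part of these markers in the levels of the 5 genes was not tested.

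Osteoblast and osteocyte markers differed mainly with FGF2 in DMSO. Of 12 tested, 9 fell and 2 rose in DMSO+FGF2 against DMSO, where 13.4% of all tested genes were called. The 16 osteoblast and osteocyte markers summed to 8707 to 9042 TPM in BGJ398, 8395 to 9321 TPM in BGJ398+FGF2, 5903 to 6368 TPM in DMSO+FGF2 and 8113 to 8335 TPM in DMSO, most of it from Col1a1, Col1a2 and Sparc. In BGJ398 against DMSO, where 0.327% of all tested genes were called, 1 of the 12 rose, Alpl, the alkaline phosphatase of mineralizing osteoblasts, with 18.8 CPM in BGJ398 and 12 CPM in DMSO (log2 fold change 0.65 ± 0.10, edgeR adjusted p = 0.0165). The size was close to that of Cd24a, Fndc1 and Perp, but Alpl fell by 3.18 ± 0.13 in DMSO+FGF2 against DMSO (edgeR adjusted p = 8.69e-09), where the 5 genes lay between -0.30 and 0.51. The Alpl call in BGJ398 against DMSO was lost without any 1 of the 3 DMSO libraries or without BGJ398 replicate 2 or 3 (adjusted p up to 0.123). The part of the osteoblast markers in these levels was not tested either.

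The genes most like each member were found by the root mean square difference between log2 profiles over the 12 libraries, each centred on its own mean, among 10361 or 10362 other tested protein-coding genes averaging 5 CPM or more; the profiles share libraries, and the distances are a description. Nearest to Prss35 were Igfbp5, which binds insulin-like growth factors, at 0.187, the adaptor Grb14 at 0.223 and Ehd3 at 0.226. All 3 rose in BGJ398 against DMSO (log2 fold changes 0.69, 0.48 and 0.42; edgeR adjusted p = 0.00160, 0.0393 and 0.00951) and fell in DMSO+FGF2 against DMSO (-0.63, -0.33 and -0.61; edgeR adjusted p = 7.95e-05, 0.0286 and 2.45e-05). Prss35 itself had -0.30 in that last contrast, closest to Grb14.

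Cd24a and Fndc1 were near each other, at 0.144. Among the 3 genes nearest to Cd24a was also Nrep, at 0.135, and among the 3 nearest to Fndc1 was Inhba, which encodes an activin subunit, at 0.157. Cd24a was also among the 3 nearest of Perp, at 0.166, after Mfap5, a microfibril protein, at 0.132, and before Hhipl1 at 0.202. For Lrrc15, which had the fewest reads, the nearest genes were farther off: Lgr5, a receptor for R-spondins, at 0.239, Bmper, a secreted BMP regulator, at 0.270 and Cd24a at 0.275. Bmper rose in both BGJ398 against DMSO (0.64 ± 0.08) and DMSO+FGF2 against DMSO (0.52 ± 0.08; edgeR adjusted p = 0.00508 and 0.000947), where Lrrc15 had 1.06 and 0.51.

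The genes beside the 5 on their chromosomes were described in the same contrasts. Of 20 neighbours, the 2 tested genes on each side of each member in the order of the GENCODE M21 annotation, none was called in BGJ398 against DMSO or in BGJ398+FGF2 against DMSO, where 0.327% and 0.734% of all tested genes were, and their log2 fold changes for BGJ398 over DMSO ran from -0.37 to 0.41. The highest was Hes1, a transcription factor of the Notch pathway beside Lrrc15, at 0.41 ± 0.12 (edgeR adjusted p = 0.239). In BGJ398+FGF2 against DMSO+FGF2, 4 of the 20 passed, a share near the 22.2% of all tested genes. Hes1 rose by 1.04 ± 0.12 (edgeR adjusted p = 5.94e-05) and Qrsl1, beside Cd24a, by 0.38 ± 0.12 (0.0346), while Tnfaip3, an inhibitor of NF-kappaB signaling beside Perp, fell by 0.43 ± 0.07 (0.000559). The last of the 4, Rsph3a beside Fndc1, fell by 0.30 ± 0.09 (0.0221) but shares 59.4% of its 31-base words with Rsph3b, so its value is uncertain. The Qrsl1 call was lost without any 1 of the 3 DMSO+FGF2 libraries or without BGJ398+FGF2 replicate 1 or 3, with adjusted p up to 0.148.

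The 5 genes themselves share few words with other genes. Words were compared on the transcript strand only, so words shared with transcripts of the opposite strand were not counted. Compared in this way, Lrrc15 and Perp have no 31-base word in common with any other gene, and Fndc1 shares 0.244% of its words. Cd24a shares 4.98% of its words, most of them with Gm6212, and Prss35 shares 5.47% (188 words), of which 86 are shared with 1500011B03Rik, so a small part of the reads of these 2 genes could have been assigned elsewhere.

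Whether BGJ398 changed the transcripts used was open to test only in Fndc1. Lrrc15 and Perp have 1 transcript each in the files. Prss35-201 held 100% of the Prss35 TPM in 11 libraries and 55.8% in DMSO replicate 2, and Cd24a-201 held 97.6% to 100% of the Cd24a TPM. Fndc1 has 4 transcripts in the files, of which the long coding one, Fndc1-202 with 5845 bases, took 91.4% of the reads but 48.5% of the TPM, since TPM are scaled by length and the short Fndc1-204 (636 bases, 6.30% of reads) and Fndc1-201 (602 bases, 1.35% of reads) took 39.0% and 11.5% of the TPM. In TPM, Fndc1-202 was at 19.1 ± 0.760 in BGJ398, 19.8 ± 3.78 in BGJ398+FGF2, 10.9 ± 1.36 in DMSO+FGF2 and 12 ± 0.961 in DMSO (SD, n = 3 each). The long transcript was higher in each library with BGJ398 than in each with DMSO. As it took most of the Fndc1 reads, this largely repeats the gene-level values on which Fndc1 was picked.

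The share of a transcript in the gene was not used to pick Fndc1 and was tested between the 6 libraries with BGJ398 and the 6 with DMSO, with or without FGF2. Fndc1-202 held 49.6% ± 4.47 of the Fndc1 TPM with BGJ398 and 47.4% ± 8.0 with DMSO (SD, n = 6 each; 2-sided exact permutation p = 0.552, adjusted 0.828 over 3 transcripts). Fndc1-204 held 37.6% ± 5.50 and 40.4% ± 5.88 (exact p = 0.400, adjusted 0.828), and Fndc1-201 held 11.9% ± 6.85 and 11.2% ± 12.4 (exact p = 0.887, adjusted 0.887). The smallest p that 924 permutations can give is 0.00216. A shift in transcript use was not detectable at this spread, which for the short transcripts rests on few reads.

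**Figure D5:**
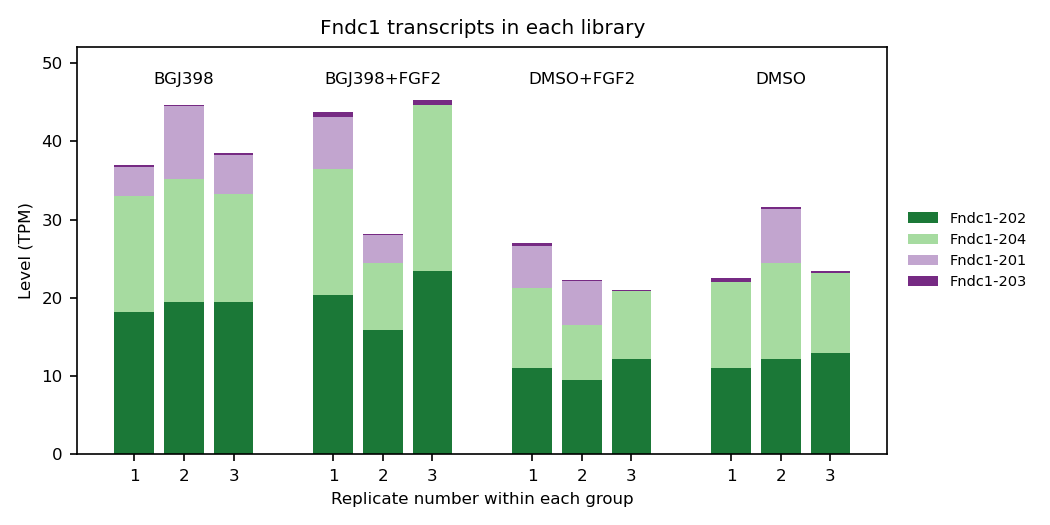
Level in TPM of the 4 Fndc1 transcripts (stacked colours) in each library, by group and replicate. Fndc1-202 (dark green, at the base) is at 15.9 to 23.4 TPM in the 6 libraries with BGJ398 and at 9.51 to 12.9 TPM in the 6 with DMSO, while Fndc1-201 (light purple) is at 0 in some libraries of 3 groups. The levels of Fndc1-202, which took most of the reads, largely repeat those on which Fndc1 was picked.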

How the data were processed

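Poly(A) RNA of Ocy454 cells was sequenced in 12 libraries, 3 in each of 4 groups taken from the sample titles. Reads were quantified per transcript with Salmon against build GRCm39, per the submitters' processing notes. Its version, the library type and any use of strand are unstated, so reads of genes that overlap, also on opposite strands, may be mixed. The deposited columns, per the file headers, are expected counts (estimated reads, not scaled), TPM (scaled by length to a fixed total per library) and effective lengths in bases, another deposited quantity, for 116178 transcripts.

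Expected counts were summed per gene by transcript identifier with GENCODE M21 (GRCm38, names and gene order only) and rounded; 114656 transcripts of 35214 genes matched, and the reads of the other 1522, 0.499% to 0.641% of a library, were left out. TPM were summed likewise. Depth was 18951710 to 27716975 reads; counting errors cover counting only. Tests used edgeR 4.0.16 (R 4.3.3): filterByExpr by group (12542 genes), scaling by TMM, then the quasi-likelihood test in 1 model of 4 group means with 8 residual degrees of freedom, 2-sided, with Benjamini-Hochberg adjustment over all tested genes and a threshold of 0.05; a gene past it is said to be called, to rise or to fall. The biological coefficient of variation was 8.49%. The standard error is the absolute log2 fold change divided by the square root of F. CPM are scaled by TMM. Alternatives were other size factors, no filter, DESeq2 1.42.0, limma-voom (limma 3.58.1), counts scaled from TPM by gene length, a replicate block and leaving out each library. The procedure was tested on simulated counts, which had the same spread in every gene and no library that stood apart, unlike these data.

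The 5 genes and the lists were chosen with earlier results of these data known. Named genes were the 5, up to 3 called genes per list, fixed relatives and FGF, p53 and bone genes, the 3 nearest profiles and the 2 neighbours on each side. A few values that these rules cover are not reported here. The share of 31-base words comes from GENCODE M21 transcripts, compared on the transcript strand only. The promoters come from RefSeq (GRCm38.p6).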

Additional observations from a re-analysis of the deposited data

Results flagged for a closer look

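The effect of FGF2 differed between BGJ398 and DMSO in edgeR's interaction test for several genes named above, none of them among the 5. Of these, 6 are given here, and cell type markers other than Alpl are not among them. Of 12 tested osteoblast and osteocyte markers, 7 were called higher and 2 lower in that test, where 4.24% of all tested genes were called. The interaction is the log2 fold change by FGF2 under BGJ398 minus that in DMSO. It was 3.07 ± 0.16 for Alpl (edgeR adjusted p = 5.51e-07), 0.60 ± 0.10 for Igfbp5 (0.00432) and 0.57 ± 0.09 for Ehd3 (0.00182), which FGF2 lowered in DMSO. Pmp22 had 0.37 ± 0.08 (0.0172). For Lrrc32 it was -1.0 ± 0.14 (0.00104) and for Emp1 -0.40 ± 0.07 (0.00381), both raised by FGF2 in DMSO. Among the 5 genes it was -0.69 ± 0.32 for Lrrc15 and between 0.01 and 0.19 for the others. All of these values use the libraries on which the 5 genes were picked.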

How the results depend on the processing

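The fold changes of the 5 genes over DMSO in both BGJ398 groups kept their direction in each alternative run. The number of genes called was less stable. In BGJ398 against DMSO, 41 were called in the analysis as reported, 83 without the filter on low counts, 149 by DESeq2, 12 with counts scaled from TPM by gene length and 9 to 104 when 1 library was left out (lowest without DMSO replicate 2 or 3, highest without BGJ398+FGF2 replicate 2). In BGJ398+FGF2 against DMSO, 92 became 173, 313, 40 and 11 to 114 (lowest without DMSO replicate 3) under the same settings. Of the 5 genes DESeq2 called 5 in BGJ398 against DMSO, and leave-outs called 2 to 3 there and 2 to 4 in BGJ398+FGF2 against DMSO, with 2 without DMSO replicate 1 or 3. With counts scaled from TPM, Fndc1 was not called in either. The calls on the 5 genes describe the choice, since the genes were picked on these contrasts. Leave-outs gave 1018 to 2256 genes for DMSO+FGF2 against DMSO, where 1680 were called, and 328 to 956 for the interaction, where 532 were, DESeq2 gave 821 and scaled counts 347. BGJ398+FGF2 against DMSO+FGF2 had 2782, 1812 with scaled counts and 3345 without BGJ398+FGF2 replicate 2. Scaled counts also ended the calls on Etv5, Spred1, Spred2 and Masp1 in BGJ398 against DMSO (adjusted p = 0.0502, 0.0897, 0.155 and 0.0526) and on Qrsl1 in BGJ398+FGF2 against DMSO+FGF2 (0.0613). For BGJ398+FGF2 against BGJ398 there were 0, and 6 without the filter, 5 by DESeq2 and 0 to 1 in leave-outs. In that contrast Fndc1, at 0.06, became -0.02 with scaled counts, -0.04 as a ratio of mean TPM (an alternative chosen after seeing the data) and -0.06 to 0.17 in leave-outs, and Cd24a, at 0.10, became 0.04 as a ratio of mean TPM. The difference in share of Fndc1-201, 0.731 percentage points, became -0.0890 in shares of reads and -1.50 to 3.60 in leave-outs. In BGJ398 against DMSO, genes near 0 changed sign: Fndc3a at -0.10 to 0.04, Fndc3b at -0.06 to 0.05, Lrrc32 at -0.03 to 0.08 and Tgfb1 at -0.06 to 0.04 in leave-outs, and Mdm2 at -0.01 and Tgfb1 at 0.09 with scaled counts. In leave-outs that leave a group with 2 libraries the spread is shared with the other groups. The cause of these differences was not tested.

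The replicate numbers showed no general pairing of the libraries: of 18 correlations between same-numbered libraries of different groups, -0.146 to 0.239, 2 were over 0.1. The highest, 0.239, was between DMSO+FGF2 replicate 2 and BGJ398+FGF2 replicate 2, the library that stood apart. Whether some libraries shared a batch was not tested. With the replicate block 21 genes were called in BGJ398 against DMSO and 36 in BGJ398+FGF2 against DMSO, against 41 and 92 without it. The block also ended the calls on Spred1 (adjusted p = 0.0729) and Spred2 (0.0859) in BGJ398 against DMSO, and the call on Cdh1 in DMSO+FGF2 against DMSO was lost with the block (0.0733), by DESeq2 (0.0557), without the filter (0.106) and with scaled counts (0.157).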
